A study of Arabidopsis thaliana with 6 samples.

Results

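Brassinosteroids are plant steroid hormones that promote cell elongation, and the 10 genes described here encode the chain of proteins that carries their signal from the cell surface to the nucleus. BRI1 and BRL3 are receptor kinases at the plasma membrane, BAK1 is the coreceptor that joins BRI1 when hormone binds, and BKI1 is an inhibitor that keeps BRI1 inactive without hormone. BIN2 is a GSK3-type kinase that blocks the pathway by phosphorylating the BZR transcription factors, BSU1 is a phosphatase that counteracts BIN2, and BZR1, BES1 (also called BZR2), BEH1 and BEH2 are members of the BZR family that control brassinosteroid-responsive genes. Much of this chain is known to be regulated by phosphorylation, which messenger RNA does not show. The genes were chosen by locus tag, with earlier results of these data known. All 10 were found among the 33518 genes of the fuller of the deposited tables.

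The libraries were made from whole Arabidopsis thaliana seedlings of the ecotype Col-0, grown for 5 days on half-strength medium in constant light. PRE1-Ox/IBH1-Ox (the double line) carried 35S:PRE1-YFP together with 35S:IBH1-myc, IBH1-Ox carried 35S:IBH1-myc alone, and Col was the wild type, with 2 libraries in each of the 3 groups. Both transgenes encode proteins of the helix-loop-helix class that lie downstream of the BZR factors: IBH1 inhibits growth, and PRE1, which is induced by brassinosteroid, sequesters IBH1. The 35S promoter drives expression in most cells, and how many independent transformants each genotype stands for is not given in the sources used here. IBH1 is overexpressed in both transgenic groups, and the double line differs from IBH1-Ox by label in 35S:PRE1-YFP.

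Values are normalized counts, that is, reads of a gene divided by the authors' size factor of the library. The authors deposited group means, and the reads of single libraries were worked out from these means. Of each pair the library with the larger size factor is given first. A gene is said to rise or fall where the authors' deposited test gave an adjusted p below 0.05. Log2 fold changes with a standard error (SE) come from limma-voom fitted to the recovered reads. Summed over the genes whose reads could be recovered, the libraries held 9506402 and 7979224 reads in the double line and 13918858 and 12187738 in IBH1-Ox. These sums leave out 7 genes in the double line and 28 in IBH1-Ox, all of high mean, so the full depth was greater. For Col, reads could be recovered for the listed genes only, with 1151302 and 783116 reads. The labels do not say that replicates came from separate cultures, so the p-values measure the spread between these libraries, which may be technical. PRE1 (AT5G39860) stood at 8465 and 8344 normalized counts in the double line, against 125 and 135 in IBH1-Ox. IBH1 (AT2G43060) stood at 16541 and 16523 in the double line, against 10551 and 11629 in IBH1-Ox (log2 fold change 0.58 ± 0.042, limma-voom adjusted p = 2.32e-10). In the table of IBH1-Ox against Col, IBH1 stood at 11790 and 12997 in IBH1-Ox, against 179 and 138 in Col. PRE1 was listed there too, at 140 and 151 in IBH1-Ox, against 66.7 and 56.4 in Col (authors' fold 2.37, adjusted p = 6.68e-10). The added PRE1, the higher IBH1 and any other difference between the transgenic lines cannot be told apart in the comparison of the double line with IBH1-Ox. In whole seedlings, fewer cells of a type and less RNA per cell cannot be told apart. All 5 shoot markers and all 7 root markers examined were above 0 in the authors' means of both lines. Of the 5 shoot markers 2 rose and 2 fell in the double line, with authors' folds from 0.527 to 2.85. Their summed authors' means, 460300 in the double line and 452700 in IBH1-Ox, hide these opposite changes. Of the 7 root markers 1 rose and 1 fell (2330 and 2280 summed normalized counts in the double line, 2109 and 2150 in IBH1-Ox). The 4 seed storage markers summed to 402.5 and 391 normalized counts in the double line and to 1775 and 752 in IBH1-Ox, where the libraries differed from each other. By the authors' test 1 of the 4 rose and none fell. The 1 that rose had 9 and 6 reads in the double line, against 2 and 0 in IBH1-Ox. Its mean was below the 10 normalized counts required for the limma-voom fit, which called the other 3 lower. Over all genes tested, the authors' test called 12.7% as higher and 9.78% as lower. The part of these markers in the results below was not tested.

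The stretch of 250 bases before the annotated gene start is shown for BES1 and BKI1, the members that rose in the double line, for BEH1, the member that was lower in IBH1-Ox than in Col, and for BZR1 and BEH2, family members that were called in neither comparison. Sequences are in the sense direction of the gene, 5′ to 3′, from TAIR10.1 with the RefSeq annotation, and end 1 base before the outermost annotated start. Capitals mark the brassinosteroid response elements CGTGTG and CGTGCG (BRRE, the elements that BZR1 is known to bind), the G-box CACGTG and the E-box CANNTG, of which the G-box is 1 form, each searched on both strands.
BES1, chr1:6688213-6688462, plus strand: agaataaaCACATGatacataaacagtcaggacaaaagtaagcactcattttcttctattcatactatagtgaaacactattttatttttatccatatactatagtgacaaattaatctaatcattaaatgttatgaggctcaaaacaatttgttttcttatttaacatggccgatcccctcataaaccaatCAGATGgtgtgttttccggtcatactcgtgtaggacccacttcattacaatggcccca
BKI1, chr5:17144673-17144922, minus strand: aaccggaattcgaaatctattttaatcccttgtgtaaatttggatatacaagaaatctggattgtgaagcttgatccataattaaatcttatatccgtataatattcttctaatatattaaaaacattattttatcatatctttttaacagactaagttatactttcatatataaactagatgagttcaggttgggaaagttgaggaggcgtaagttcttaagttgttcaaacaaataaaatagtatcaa
BEH1, chr3:18863398-18863647, minus strand: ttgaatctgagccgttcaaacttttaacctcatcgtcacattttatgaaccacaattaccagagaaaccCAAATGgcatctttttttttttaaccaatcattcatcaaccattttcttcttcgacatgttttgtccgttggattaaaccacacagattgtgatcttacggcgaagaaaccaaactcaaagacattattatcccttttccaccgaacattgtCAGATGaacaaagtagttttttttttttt
BZR1, chr1:28185254-28185503, plus strand: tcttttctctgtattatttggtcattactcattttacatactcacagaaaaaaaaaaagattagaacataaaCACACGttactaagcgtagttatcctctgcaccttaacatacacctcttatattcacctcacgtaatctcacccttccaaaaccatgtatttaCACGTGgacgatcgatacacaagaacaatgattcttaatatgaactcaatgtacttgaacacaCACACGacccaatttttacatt
BEH2, chr4:17334356-17334605, minus strand: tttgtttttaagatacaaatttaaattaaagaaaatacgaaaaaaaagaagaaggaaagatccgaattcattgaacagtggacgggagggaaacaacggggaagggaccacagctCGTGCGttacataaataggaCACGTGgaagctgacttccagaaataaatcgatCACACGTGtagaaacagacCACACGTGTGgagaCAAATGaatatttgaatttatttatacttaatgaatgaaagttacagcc
A BRRE was found upstream of 3 of the 10 members, BAK1, BZR1 and BEH2, while 6.71% of 27443 windows of the same length before protein-coding genes hold one (5.37% hold CGTGTG and 1.57% CGTGCG). BZR1 holds 2 BRREs and a G-box, and BEH2 holds 4 BRREs and 3 G-boxes, several of which overlap each other. A G-box occurs in 6.49% of all windows, and among the members in these 2 only. The E-box occurs in 55.3% of all windows and in 6 of the 10 members. BES1 and BEH1 hold 2 E-boxes each and no BRRE, and BKI1, BRL3, BIN2 and BSU1 hold none of the motifs in this window. BES1 has 5 annotated transcript models with 5 different starts, so for some of them the window lies farther upstream. A match is a run of letters and not a shown binding site.

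**Figure D1:**
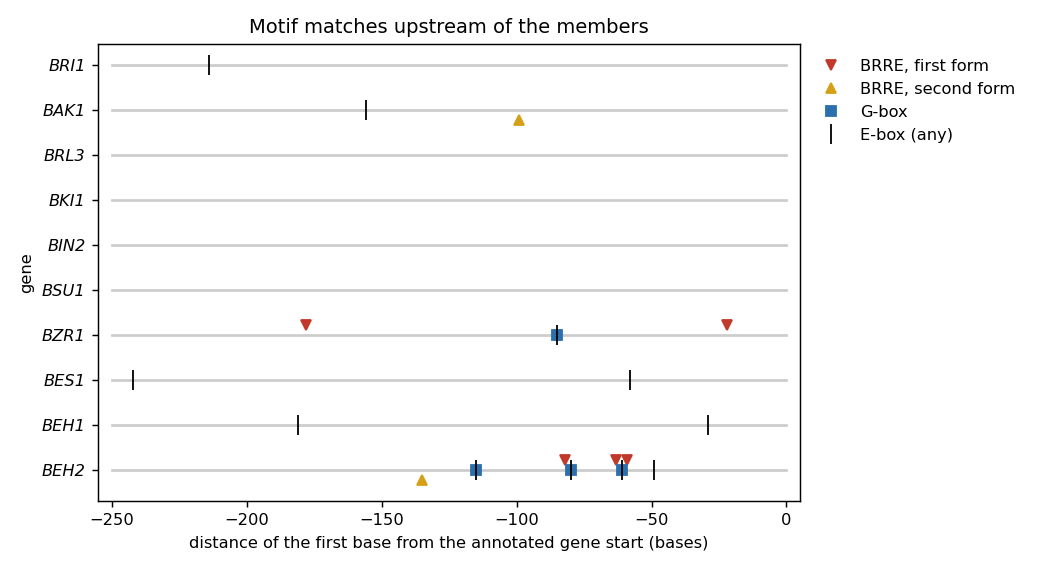
Positions of BRRE, G-box and E-box matches on either strand in the 250 bases before the annotated start of each of the 10 members (x axis, distance of the first base of the match from the gene start, in bases). BEH2 and BZR1 carry BRRE and G-box matches, BES1 and BEH1 carry E-boxes only, and 4 members carry no match.

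In the comparison of the double line with IBH1-Ox, 2 of the 10 members rose and none fell. BES1, which turns on brassinosteroid-induced genes, rose 1.74-fold, and BKI1, the receptor inhibitor, rose 1.51-fold. The authors' test called 22.5% of 24451 tested genes, 12.7% as higher and 9.78% as lower, and the number of called members is close to that background. The share called depended on level. Among genes with a mean within 1.5-fold of that of a member, it ran from 9.07% for BSU1 to 55.1% for BIN2. The median log2 fold change of the members in the authors' deposited table was 0.064, against -0.0082 over all genes tested. All 10 members passed the minimum mean of 10 normalized counts of the limma-voom fit, which called 38.1% of 19994 genes and, of the members, BES1 and BKI1.

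**Figure D2:**
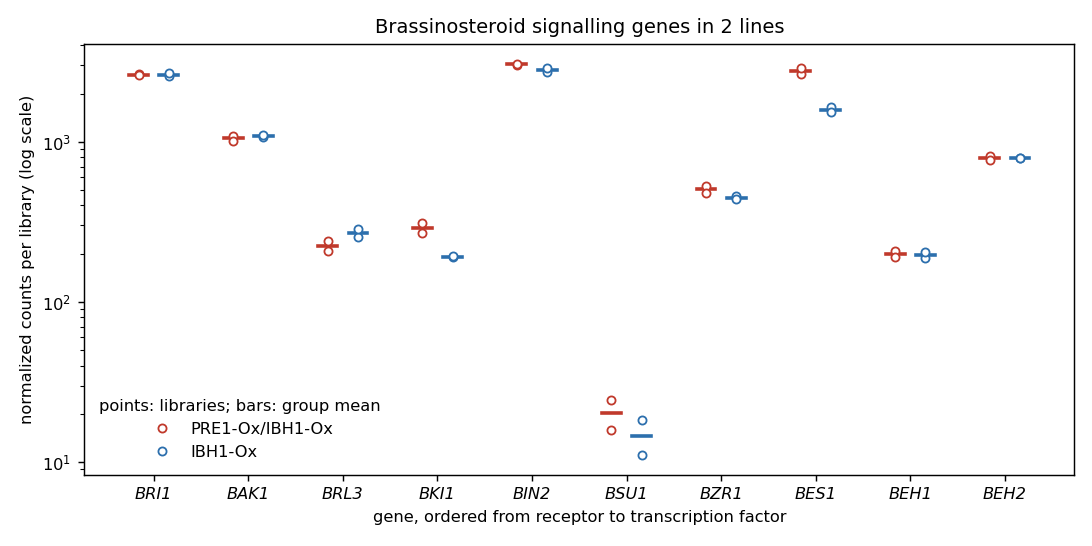
Normalized counts (log axis) of the 10 members in each library of the double line (red, left) and of IBH1-Ox (blue, right). Circles are libraries and bars are group means. BES1 and BKI1, the called members, stand apart between the lines. The libraries of BRL3, BIN2 and BZR1 do not overlap either, which holds for 68.9% of all genes fitted. BRI1, BAK1, BSU1, BEH1 and BEH2 overlap.

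The receptor BRI1 (AT4G39400, chr4:18324457-18328831, plus strand, 1 exon) stood at 2647 and 2612 normalized counts in the double line, against 2585 and 2674 in IBH1-Ox. The libraries of the lines overlapped, and the log2 fold change was 0.0017 ± 0.051 (SE, limma-voom adjusted p = 0.984), with a 95% interval of the fold from 0.93 to 1.08. The coreceptor BAK1 (AT4G33430, chr4:16086311-16090832, minus strand) stood at 1087 and 1016 in the double line, against 1064 and 1103 in IBH1-Ox. It overlapped as well, with an interval of the fold from 0.886 to 1.07. Its exons overlap those of AT4G33420 by 78 bases, a gene that stood at 674 and 674.2 in the double line, against 423 and 431 in IBH1-Ox. The receptor BRL3 (AT3G13380, chr3:4346330-4350939, plus strand), a relative of BRI1 known from vascular tissue, stood at 238 and 208 in the double line, against 256 and 285 in IBH1-Ox. Both libraries of the double line were lower, but the authors' adjusted p was 0.239. The limma-voom log2 fold change was -0.26 ± 0.12 (adjusted p = 0.0883), with a fold interval from 0.703 to 0.99. Without the IBH1-Ox library of the larger size factor it was -0.34 (limma-voom adjusted p = 0.0313), so that 1 library decides on which side of the threshold BRL3 falls. Of the 7 vascular markers examined, 4 rose in the double line and none fell, while 12.7% of all genes tested were called as higher. Those that rose were markers of xylem or procambium, while those of phloem and cambium were not called. The 7 markers summed to 6220 and 6068 normalized counts in the double line and to 4984 and 5351 in IBH1-Ox. Their relation to BRL3 was not tested.

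BKI1 (AT5G42750, chr5:17142816-17144672, minus strand, 1 exon) stood at 268 and 309.9 normalized counts in the double line, against 189.7 and 193 in IBH1-Ox. Both libraries of the double line lay above both of IBH1-Ox. The mean was 289 ± 29 in the double line and 191 ± 2.1 in IBH1-Ox (SD, n = 2 each). The authors' deposited table gave an adjusted p of 0.000969, and limma-voom a log2 fold change of 0.59 ± 0.12 (adjusted p = 0.000334), with a fold interval from 1.27 to 1.77. Of 4444 genes with a mean within 1.5-fold of that of BKI1, 12.4% were called as higher by the authors. Per kilobase of coding sequence, BKI1 had 0.359 and 0.42 of the level of BRI1 in the double line, against 0.26 and 0.255 in IBH1-Ox. The ratio of inhibitor to receptor transcripts was thus higher in both libraries of the double line, which with 2 libraries against 2 no exact permutation test can place below p = 0.333 (2-sided).

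Downstream of the receptors, BIN2 (AT4G18710, chr4:10296138-10301228, plus strand), whose kinase activity holds the BZR factors back, stood at 3005 and 3078 normalized counts in the double line, against 2743 and 2869.8 in IBH1-Ox. The libraries did not overlap, yet the difference was small and not called (authors' adjusted p = 0.229). For scale, the libraries of the lines did not overlap for 68.9% of the 19994 genes fitted (34.4% with the double line above and 34.5% with it below), and for 5 of the 10 members, 4 with the double line above. The log2 fold change of BIN2 was 0.12 ± 0.051 (limma-voom adjusted p = 0.0738), with a fold interval from 1.01 to 1.17, and it was 0.15 (limma-voom adjusted p = 0.00751) without the IBH1-Ox library of the smaller size factor. The phosphatase gene BSU1 (AT1G03445, chr1:854410-859701, minus strand) was close to the limit of detection for a comparison, with 10 and 13 reads in the double line, against 19 and 10 in IBH1-Ox. These reads correspond to 15.8 and 24.4 normalized counts in the double line, against 18.2 and 11 in IBH1-Ox, with overlapping libraries. The fold interval ran from 0.761 to 2.42, so the direction of any change is not settled. Among 1422 genes with a mean within 1.5-fold of that of BSU1, the smallest fold called as higher was 2.3. The related phosphatase gene BSL1 had 64.1 and 44.5 times the level of BSU1 per kilobase of coding sequence in the double line, and 44.9 and 71 times in IBH1-Ox.

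Among the BZR factors, BES1 (AT1G19350, chr1:6688463-6691216, plus strand) stood at 2637 and 2898 normalized counts in the double line, against 1639 and 1539.5 in IBH1-Ox. The lowest library of the double line thus lay well above the highest of IBH1-Ox. The mean was 2768 ± 184 in the double line and 1589 ± 70.4 in IBH1-Ox (SD, n = 2 each). The authors' deposited table gave an adjusted p of 1.55e-20, and limma-voom a log2 fold change of 0.80 ± 0.058 (adjusted p = 3.05e-10), with a fold interval from 1.6 to 1.89. Of 1308 genes with a mean within 1.5-fold of that of BES1, 35.7% were called as higher by the authors, so a rise was common at this level of expression. Leaving out any 1 of the 4 libraries gave log2 fold changes between 0.73 and 0.87, each past the limma-voom threshold. Exons of BES1 overlap those of RRA3 (AT1G19360) on the opposite strand by 818 bases in the TAIR10.1 annotation, and the strand of the reads is not stated. RRA3 moved the other way, to 792 and 779 normalized counts in the double line against 946 and 966 in IBH1-Ox (authors' fold 0.822, adjusted p = 0.0129).

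BZR1 (AT1G75080, chr1:28185504-28188075, plus strand), the closest relative of BES1, stood at 530.3 and 479 normalized counts in the double line, against 455 and 440.5 in IBH1-Ox. Both libraries of the double line were higher, by a margin that did not pass (authors' adjusted p = 0.309). The log2 fold change was 0.18 ± 0.086 (limma-voom adjusted p = 0.113), and its fold interval, from 0.999 to 1.28, lies wholly below that of BES1. The ratio of BES1 to BZR1 per kilobase of coding sequence was 4.68 and 5.7 in the libraries of the double line, against 3.39 and 3.29 in IBH1-Ox. With the length of all annotated exons the ratio was 3.93 and 4.78 in the double line, against 2.84 and 2.76 in IBH1-Ox. By either length the ratios of the lines did not overlap, and their difference was not tested. The exons of BES1 and BZR1 share 22 identical runs of 50 bases, 0.941% of those of BES1 and 1.24% of those of BZR1. No such run of the other 8 members was found elsewhere in the genome, and the read length is not given in the sources used here. Exons of neighbouring genes overlap 502 bases of BZR1, among them those of AT1G75090 on the opposite strand, which stood at 48.9 and 65.7 normalized counts in the double line, against 46 and 55.1 in IBH1-Ox.

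BEH2 (AT4G36780, chr4:17332269-17334355, minus strand) stood at 814 and 769.99 normalized counts in the double line, against 795 and 793 in IBH1-Ox, and its fold interval ran from 0.904 to 1.11. BEH1 (AT3G50750, chr3:18861749-18863397, minus strand) stood at 208 and 189.7 in the double line, against 188.7 and 206 in IBH1-Ox, with an interval from 0.849 to 1.22. Both genes overlapped between the lines. The remaining family members, BEH3 and BEH4, were not called either (authors' adjusted p = 0.561 and 1). Summed per kilobase of coding sequence, the family without BES1 stood at 2243 and 2143 in the double line, against 2196 and 2132 in IBH1-Ox. BES1 made up 52.3% and 55.7% of the summed level of the 6 family genes in the double line, against 41% and 40.2% in IBH1-Ox. With the length of all annotated exons in place of the coding length, it made up 48.66% and 52.19%, against 37.65% and 36.86%. The share of BES1 was higher in both libraries of the double line, while the sums of the other family genes overlapped between the lines.

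**Figure D3:**
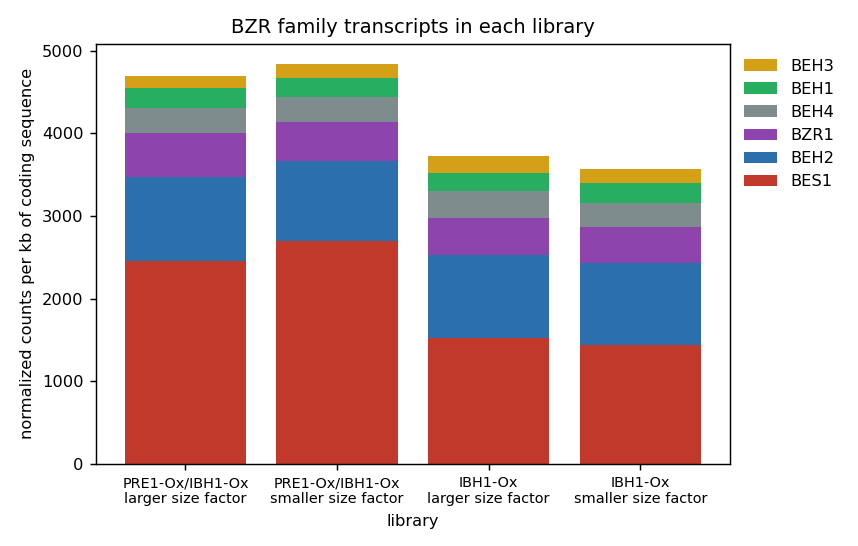
Stacked levels of the 6 BZR family genes, in normalized counts per kilobase of coding sequence, in each library of the double line (left pair) and of IBH1-Ox (right pair). The BES1 segment at the base is taller in the double line, and the segments above it sum to 2132 to 2243 in all 4 libraries.

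Ordered by level per kilobase of coding sequence, the members in IBH1-Ox ran from BIN2 (2455) and BES1 (1480) through BEH2 (995), BRI1 (732), BAK1 (545), BZR1 (443), BEH1 (237.5), BKI1 (189) and BRL3 (77.4) to BSU1 (6.13), and no neighbours in this order overlapped between libraries. In the double line BES1 (2577) overlapped BIN2 (2661), BAK1 (529) overlapped BZR1 (499), and BKI1 (285) stood above BEH1 (239.5). The remaining neighbours were separated in both lines. With the length of all annotated exons in place of the coding length, BRI1 stood above BEH2 in both lines (601 against 477 in the double line, and 601 against 478 in IBH1-Ox).

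In the comparison of IBH1-Ox with Col, the authors' table lists genes only where the adjusted p was below 0.05 and the fold at least 1.5, and 1 of the 10 members was listed. BEH1 stood at 211 and 230.2 normalized counts in IBH1-Ox, against 383.3 and 383.2 in Col. Both IBH1-Ox libraries were lower, and the authors' deposited table gave a log2 fold change of -0.80 and an adjusted p of 1.21e-08. The table lists 6.25% of about 24763 tested genes, a number implied by its adjusted p-values, 3.22% as higher and 3.03% as lower, and with 10 members 1 listed gene is not far from that background. The other 9 members were not listed, and no Col value was used for them. Absence does not show equal levels, since a difference under 1.5-fold would not be listed whatever its precision. A larger difference would also go unlisted for any of these members if its adjusted p was not below 0.05. For BSU1 the smallest listed fold among 86 genes of like level was 1.9. In the double line BEH1 stayed at its IBH1-Ox level, as given above, and the IBH1-Ox libraries are the same in both comparisons (197 and 187 reads of BEH1 in each table). Among the markers 1 of 7 vascular, 1 of 5 shoot, 2 of 7 root and 1 of 4 seed genes were listed in this comparison, and the vascular one, the phloem sucrose transporter gene SUC2, stood at 1365 and 1408 in IBH1-Ox, against 2557 and 2614 in Col. Their part in the lower BEH1 was not tested. The double line was not compared with Col.

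**Figure D4:**
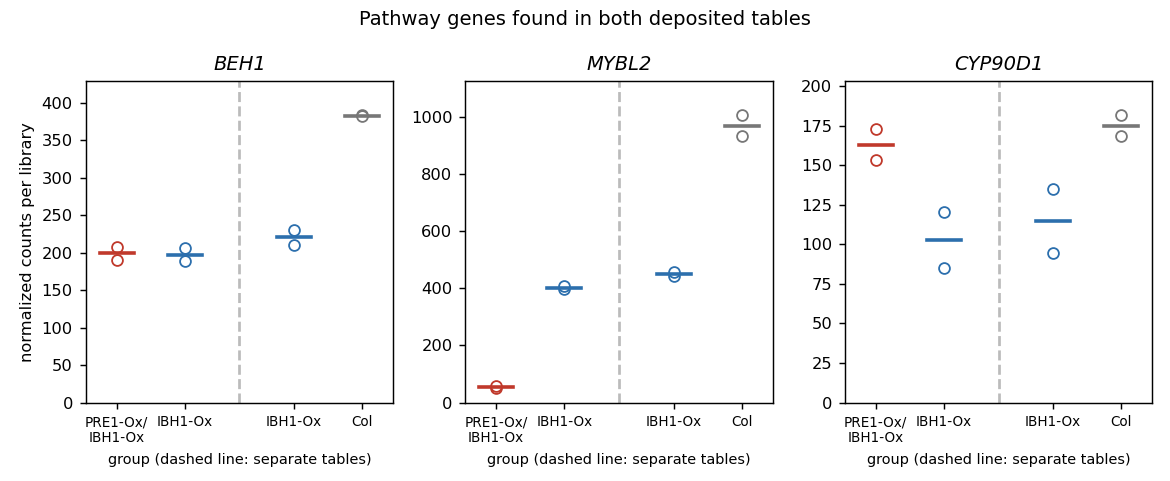
Normalized counts of BEH1, MYBL2 and CYP90D1, the pathway and synthesis genes found in both deposited tables. Circles are libraries and bars are group means, with the double line and IBH1-Ox left of the dashed line and IBH1-Ox and Col right of it, on separate normalizations. BEH1 is lower in IBH1-Ox than in Col and level between the double line and IBH1-Ox, whereas MYBL2 is lower at each step.

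Of 37 other genes of the pathway, 4 rose and 3 fell in the double line, 29 were not called, and 1 (AT4G12810) had no reads in either line. The 7 called of 36 tested are near the background of 22.5% of all genes, and the values below describe single genes. The median log2 fold change of the 36 with a p-value was -0.022 in the authors' deposited table. MYBL2 (AT1G71030), a MYB-related repressor known to act with BES1 at repressed genes and to be a substrate of BIN2, showed the lowest fold of the list. It stood at 52.1 and 56.3 normalized counts in the double line, against 396 and 407 in IBH1-Ox, a log2 fold change of -2.87 ± 0.19 (limma-voom adjusted p = 5.03e-11). It was also listed for IBH1-Ox against Col, at 442 and 455 in IBH1-Ox against 933 and 1004 in Col, with a log2 fold change of -1.11 in the authors' deposited table (adjusted p = 5.04e-16). Both comparisons contain the IBH1-Ox libraries and are given side by side for that reason.

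Of the 3 BIM genes, which encode bHLH partners of BES1, 1 rose, 1 fell and BIM2 was not called (authors' fold 0.971, adjusted p = 0.975). BIM1 rose to 1417 and 1393 normalized counts in the double line, against 1022 and 1132 in IBH1-Ox (log2 fold change 0.39 ± 0.065, limma-voom adjusted p = 4.84e-05). BIM3 fell to 48.9 and 73.2 in the double line, against 123 and 109 in IBH1-Ox (-0.97 ± 0.21, limma-voom adjusted p = 0.000997). Without the library of the double line with the larger size factor, BIM3 stood at -0.65 (limma-voom adjusted p = 0.0752). Among upstream components, BSL1, a phosphatase related to BSU1, rose to 1124 and 1206 in the double line, against 907 and 869 in IBH1-Ox. BRS1, a secreted carboxypeptidase known as a suppressor of weak bri1 mutants when overexpressed, rose to 961 and 1054 in the double line, against 758 and 811 in IBH1-Ox. GRF8, a 14-3-3 protein of the family that retains phosphorylated BZR factors in the cytoplasm, rose to 2880.5 and 2969 in the double line, against 2304 and 2045 in IBH1-Ox. BSK3, a kinase that BRI1 phosphorylates, fell to 1086 and 1132 in the double line, against 1276 and 1338 in IBH1-Ox (-0.24 ± 0.063, limma-voom adjusted p = 0.0048), and stood at -0.21 (limma-voom adjusted p = 0.134) without the library of the double line with the larger size factor. Of the 11 closest relatives of the members, BSL1 was the one called, while BRL1, SERK1, SERK2, SERK4, BIL1, BIL2, BSL2, BSL3, BEH3 and BEH4 were not, with fold intervals that together ran from 0.694 to 1.23. BRL2, a receptor gene of the pathway list outside these 11, was not called by the authors (adjusted p = 0.0623). By limma-voom it was higher (log2 fold change 0.23 ± 0.070, adjusted p = 0.0127), with a fold interval from 1.06 to 1.3. That fit called 5 genes of the pathway list as higher, BRL2 among them, and 5 as lower. It covered 35 genes of the list, and called 38.1% of all 19994 genes fitted. Of the genes not called among the 11, the intervals of BIL1 (1.01 to 1.22) and BSL2 (1.01 to 1.22) lay above 1. Without the IBH1-Ox library of the smaller size factor both passed the limma-voom threshold, BIL1 at a log2 fold change of 0.21 (adjusted p = 0.0079) and BSL2 at 0.21 (adjusted p = 0.0147).

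**Figure D5:**
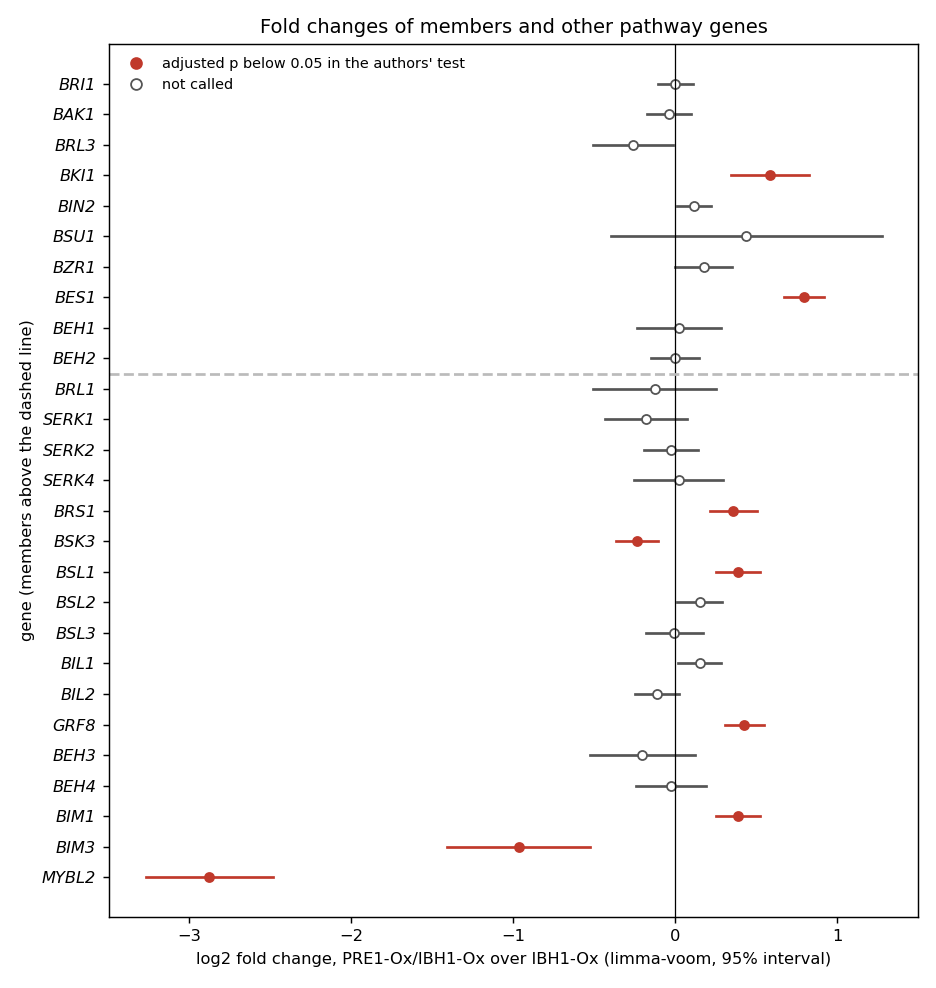
Log2 fold changes of the double line over IBH1-Ox from limma-voom with 95% intervals, for the 10 members (above the dashed line) and for their closest relatives and the called genes of the pathway list (below). Filled red points had an adjusted p below 0.05 in the authors' test. BES1 and BKI1 lie to the right of 0, MYBL2 at -2.87 lies far to the left, and the interval of BSU1 is wide.

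Genes of brassinosteroid synthesis are known targets of the pathway, since BZR1 and BES1 repress several of them. Of 7 genes examined, 4 synthesis genes rose and the inactivating enzyme gene BAS1 fell. Over all genes tested, the authors' test called 12.7% as higher and 9.78% as lower. This list was chosen with earlier results of these data known, so its count is no test of the set. DWF4, which encodes a rate-limiting hydroxylase, stood at 660 and 719 normalized counts in the double line, against 365 and 327 in IBH1-Ox (log2 fold change 0.99 ± 0.087, limma-voom adjusted p = 5.8e-09). CYP85A1, an oxidase of the last steps of synthesis, stood at 194 and 199 in the double line, against 76.6 and 87 in IBH1-Ox (1.27 ± 0.15, limma-voom adjusted p = 6.31e-07). CYP85A2 also rose, by 0.66 on the log2 scale. CYP90D1 stood at 153 and 173 in the double line, against 121 and 84.8 in IBH1-Ox, whose libraries were unlike each other. Its log2 fold change was 0.66 ± 0.17 (limma-voom adjusted p = 0.00363), but 0.93 without the IBH1-Ox library of the larger size factor and 0.42 (limma-voom adjusted p = 0.0448) without that of the smaller one. CYP90D1 was the 1 gene of this list found in the table of IBH1-Ox against Col, where it fell to 135 and 94.8 in IBH1-Ox, against 168 and 181 in Col (log2 fold change -0.61, adjusted p = 0.0112 in the authors' deposited table). CPD and ROT3 were not called in the double line (authors' adjusted p = 0.827 and 0.151). ROT3 passed the limma-voom threshold without the IBH1-Ox library of the larger size factor, at a log2 fold change of 0.37 (adjusted p = 0.00134). BAS1 fell to 191 and 199 in the double line, against 281 and 250 in IBH1-Ox, and stood at -0.41 (limma-voom adjusted p = 0.0837) without the library of the double line with the larger size factor.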

How the data were processed

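RNA was sequenced from whole seedlings in 2 libraries for each of 3 groups. The submitters' processing notes name TopHat, DESeq and TAIR10, without versions. How reads were counted, and whether by strand, is not stated there. As deposited by the authors, 2 tables were used, each with a signal per group (the mean of counts divided by size factors), a fold ratio of the groups, a log2 fold and p-values, raw and adjusted. The table of IBH1-Ox against Col holds 1547 genes, with adjusted p up to 0.0492 and folds from 1.501. The other holds 33518 genes, of which 9067 had a mean of 0, and 5 entries that name no gene. Of the sum of that table, ambiguous reads made up 1.24% in the double line and 1.25% in IBH1-Ox, reads with several places 10.3% and 12.8%, and reads outside genes 0.959% and 1.05%.

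The deposited means are sums of whole reads weighted by size factors, so each mean above 0 was split into the reads of its 2 libraries (relative tolerance 1e-10). A single pair resulted for 99.97% of means in the double line and 99.88% in IBH1-Ox in the fuller table, and for 99.87% in IBH1-Ox and 99.81% in Col in the other. Means without a single pair, all of 21117 or more, were left out of the fit. The libraries carry no replicate number and are told apart by size factor. Between libraries of a group the counts differed by more than sampling noise (mean chi-square per gene 1.23 in the double line, 2.26 in IBH1-Ox). The IBH1-Ox reads were equal in both tables for 1545 of 1545 genes.

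Calls rest on the authors' adjusted p below 0.05. Fold changes, SE and 95% intervals come from limma-voom (limma 3.58.1, R 4.3.3) with the authors' size factors on 19994 genes with a mean of at least 10 normalized counts. Both procedures were tested on simulated data. The members and lists were chosen with earlier results of these data known. Named are the members, the transgenes, the called genes of the pathway list, the closest relatives of the members and the synthesis genes. The neighbours, SUC2, BIM2 and BRL2 were named after their values were seen. Gene positions and sequences are those of TAIR10.1 with the RefSeq annotation, not of the authors' TAIR10 annotation. Alternatives were another threshold, fold limit, normalization (TMM), filter and length, and leaving out each library.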

Additional observations from a re-analysis of the deposited data

How the results depend on the processing

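BES1 and BKI1 were called under each alternative run. Among the 10 members 2 to 3 were called when 1 library was left out. The third was BRL3 without the IBH1-Ox library of the larger size factor and BIN2 without that of the smaller one, and their log2 fold changes ranged from -0.3658 to -0.1743 (BRL3) and from 0.08279 to 0.1482 (BIN2). Of the other pathway genes 7 were called by the authors, 10 by limma-voom, 2 (MYBL2 and BIM3) with a fold of at least 1.5, and 7 to 11 with 1 library left out. Of the 7 synthesis and inactivation genes 5 were called by the authors and by limma-voom, 4 to 6 with 1 library left out, and 6 without the filter on low counts, where ROT3 passed (limma-voom adjusted p = 0.0485). As background to these counts, the authors' test called 22.5% of all genes tested, and limma-voom with all libraries 38.1% of all genes fitted. With a fold of at least 2, 0 members were listed for IBH1-Ox against Col. BRI1 stood at -0.002034 with TMM factors. Genes that were not called changed sign when 1 library was left out, the log2 fold change ranging from -0.02327 to 0.02567 for BRI1, from -0.09194 to 0.005902 for BAK1, from -0.04873 to 0.085 for BEH1, from -0.04355 to 0.03705 for BEH2, from -0.3055 to 0.03362 for BRL1, from -0.07396 to 0.01969 for SERK2, from -0.04765 to 0.1041 for SERK4, from -0.1232 to 0.1051 for BSL3, from -0.0942 to 0.05565 for BEH4 and from -0.01658 to 0.1152 for CPD. The cause of these changes was not tested. No paired analysis was possible because the recovered libraries carry no replicate number. With 2 libraries a group the intervals are wide for rare transcripts, above all BSU1, and the limma-voom fits with 1 library in a group assume that it varies like the other group. Intervals cover the spread between these libraries, and the fit called 5054 to 7519 of all genes with 1 library left out, against 7612 with all.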
